A study of Homo sapiens and Mus musculus with 29 samples.

Results

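CYP24A1, CYP27B1, VDR, TRPV6, CALB1, CALB2 and ATP2B1 form a set of 7 genes of the vitamin D response and of calcium handling, taken by their symbols from the 58719 genes of the expression table. Vitamin D acts through its active hormone, which binds the vitamin D receptor VDR, a nuclear receptor that pairs with a retinoid X receptor on DNA. The hormone is made by the enzyme of CYP27B1 and broken down by that of CYP24A1, which is itself a well-known target of the receptor. In epithelia that take up calcium, the channel TRPV6 lets calcium in, calbindins buffer it, and the pump ATP2B1 exports it. CALB1 encodes calbindin-D28k and CALB2 encodes calretinin, a related buffer that also serves as a marker of mesothelium.

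The 7 genes were chosen by function and with the values of these libraries in view: CALB1, CALB2 and CYP24A1 were selected on the different patterns that they show across the groups. Their levels and differences are therefore given as a description, with no test. VDR, CYP27B1 and ATP2B1 were tested with limma, and p-values were adjusted over all genes of the table that reached a mean of 1 RPKM (reads scaled to gene length and library size). TRPV6 lay below this level, at a mean of 0.278 RPKM, so 6 of 7 genes passed the filter. In GRCh38, CYP24A1 lies on chromosome 20 (54153446 to 54173986), CYP27B1, VDR and ATP2B1 on chromosome 12 (57762334 to 57768986, 47841537 to 47943048, and 89588049 to 89709366), TRPV6 on chromosome 7 (142871208 to 142885745), CALB2 on chromosome 16 (71358713 to 71390436) and CALB1 on chromosome 8. All are protein coding, and all lie on the minus strand except CALB2. The interval of CYP27B1 overlaps that of METTL1 on the same strand, and long noncoding genes overlap VDR, TRPV6, CALB2 and ATP2B1 on the opposite strand. Whole gene intervals were compared, and whether reads in the shared stretches were counted for either gene was not checked.

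HPAF-II, an established human pancreatic ductal adenocarcinoma line of the classical subtype, was injected into the pancreas of NSG mice about 8 weeks old, which lack functional lymphocytes but keep their own stroma and vessels. All groups carry a CRISPR label. Control cells carried Cas-9-EV (EV, empty vector). The HNF4G knockout (HNF4G-KO) was a pool of 3 clones with frameshifts, and its label without FOXA1 also names EV. The paper reports the clones as verified knockouts, calls their frameshifts heterozygotic and writes the pool as HNF4G-/-. FOXA1 overexpression (FOXA1-OE) was lentiviral, alone or on top of the knockout. RNA was sequenced from 3 control tumors, 3 FOXA1-OE tumors, 4 tumors labeled HNF4G-KO and 5 tumors from 4 mice labeled HNF4G-KO + FOXA1-OE. Metastases were 2 in the peritoneum labeled HNF4G-KO and 4 from 3 mice labeled HNF4G-KO + FOXA1-OE. Of the latter, 1 was in the spleen, 1 in the peritoneum and 2 were labeled as peri mets in fat. In total, 21 libraries of 15 mice were used. Libraries of the same kind from a mouse were averaged before any test, and means and SDs are over mice.

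Levels of HNF4G and FOXA1 mRNA were set against the labels, and FOXA1 was low in some libraries labeled FOXA1-OE. HNF4G was at 5.72 to 8.42 RPKM in tumors labeled HNF4G-KO and at 2.48 to 3.47 in control tumors. Its mRNA was thus not lower in tumors with the knockout label alone. HNF4G was at 1.69 to 7.09 RPKM in tumors labeled HNF4G-KO + FOXA1-OE and at 0.495 to 3.04 in FOXA1-OE tumors. The paper describes the knockout as frameshift mutations, and mRNA levels do not show whether the protein was lost. Groups are therefore called by their labels, and every direction below is that of libraries so labeled. FOXA1 was at 0.763 RPKM in FOXA1-OE tumor 3, inside the control range of 0.519 to 0.932, while the other two FOXA1-OE tumors were at 6.32 and 8.18. Of the metastases labeled HNF4G-KO + FOXA1-OE, metastasis 2 had 17.9 RPKM of FOXA1 and the other three had 0.535 to 1.55. Depth was between 33.1 and 69.6 M reads per library, with a median of 54.5 M, which gave from 76 reads (TRPV6) to 35451 reads (CALB1) for a gene of the set in a library. The summed level of 7 carcinoma markers was between 3451 and 6454 RPKM in all libraries. Markers of host cell types were read as well: 6 acinar markers summed to 383 RPKM in control tumor 2 and to at most 26.04 in any other library, and 6 of 7 stromal markers were detected, with sums of 52.6 to 171 RPKM in control tumors, 43.3 to 63.2 in tumors labeled HNF4G-KO, and 364 in HNF4G-KO metastasis 2. The 3 endothelial markers PECAM1, CDH5 and KDR never reached 1 RPKM in any library. Host cells are mouse cells, while reads were counted on human genes. Low host markers therefore do not show that host cells were few. The part of host cells in the levels below was not tested. In such bulk samples fewer cells of a type cannot be told apart from less RNA per cell.

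**Figure D1:**
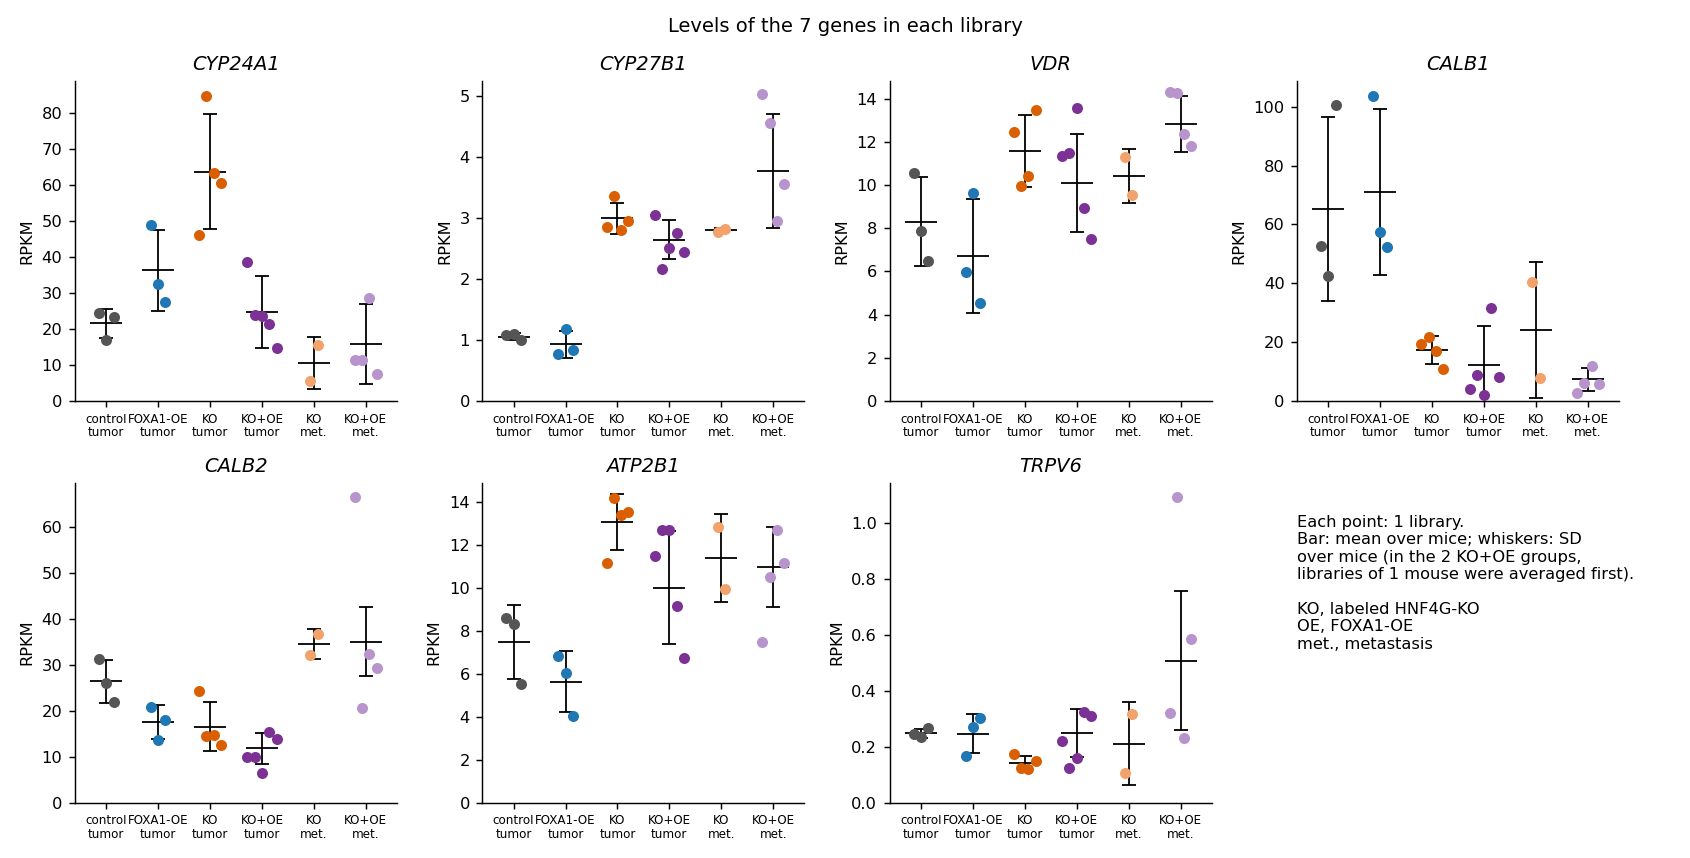
Level of each gene in RPKM (vertical axes, starting at 0, 1 scale per gene) in the 21 libraries by group; points are libraries, bars are means over mice and whiskers are SDs. CYP27B1 separates all groups labeled HNF4G-KO from control and FOXA1-OE tumors, CYP24A1 is highest in tumors labeled HNF4G-KO, CALB1 is highest in control and FOXA1-OE tumors, and CALB2 is high in metastases.

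CYP24A1, the enzyme that inactivates the hormone, was high in tumors labeled HNF4G-KO and not in those that carried FOXA1-OE as well. It was at 24.4, 16.9 and 23.4 RPKM in control tumors and at 48.9, 32.5 and 27.5 in FOXA1-OE tumors. Tumors labeled HNF4G-KO had 46.2, 84.9, 63.4 and 60.5 RPKM. With both modifications the 5 tumors had 38.5, 23.8, 23.7, 21.5 and 14.8 RPKM. Every FOXA1-OE tumor and every tumor labeled HNF4G-KO was thus above every control tumor, while the tumors with both labels overlapped the control range and lay below every tumor with the knockout label alone.

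Group means of CYP24A1 were 21.5 ± 4.07 RPKM in control tumors (SD, n = 3), 36.3 ± 11.2 in FOXA1-OE tumors (n = 3), 63.8 ± 16.0 in tumors labeled HNF4G-KO (n = 4) and 24.7 ± 10.0 with both (n = 4 mice). On the scale of log2(RPKM + 1), the difference from control tumors was 1.51 ± 0.30 (SE) for the knockout label, 0.70 ± 0.32 for FOXA1-OE and 0.13 ± 0.30 for both. FOXA1-OE on top of the knockout label went with a difference of -1.38 ± 0.27. The FOXA1-OE effect with the knockout label, less the effect without it, was -2.08 ± 0.42, part of the pattern on which the gene was selected. The 3 differences from control tumors share the same 3 control samples. Without control tumor 2 or tumor 1 of the HNF4G-KO + FOXA1-OE group, the small difference of that group from control turned to -0.03 and -0.11. Without FOXA1-OE tumor 3, whose FOXA1 was at the control level, the FOXA1-OE difference of CYP24A1 was 0.88.

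CYP27B1, which makes the active hormone, was at most 5.03 RPKM in any library and rose in each group of tumors with the knockout label. It was at 1.07, 1.10 and 0.990 RPKM in control tumors and at 0.762, 1.18 and 0.839 in FOXA1-OE tumors. It reached 2.85, 3.36, 2.81 and 2.95 RPKM in tumors labeled HNF4G-KO, and 3.04, 2.15, 2.505, 2.75 and 2.44 in those labeled HNF4G-KO + FOXA1-OE. No library of the 4 groups with the knockout label, metastases included, overlapped any control or FOXA1-OE tumor: the lowest of the former had 2.15 RPKM and the highest of the latter 1.18.

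The ratio of mean levels was 2.84 for HNF4G-KO over control tumors and 2.502 for HNF4G-KO + FOXA1-OE over control tumors. In the limma fit, CYP27B1 was higher by 0.96 ± 0.13 on the log2(RPKM + 1) scale for HNF4G-KO against control (adjusted p = 0.00102), by 0.82 ± 0.13 for HNF4G-KO + FOXA1-OE against control (adjusted p = 0.00394), and by 0.92 ± 0.13 for HNF4G-KO + FOXA1-OE against FOXA1-OE (adjusted p = 0.00105). It was called, that is, it had an adjusted p under 0.05, in these 3 comparisons, each of which also called 12.2%, 4.7% and 7.86% of all genes tested. FOXA1-OE differed from control by -0.10 ± 0.14 (adjusted p = 0.857, 95% interval -0.39 to 0.19), a comparison with 0% of genes called, and HNF4G-KO + FOXA1-OE from HNF4G-KO by -0.14 ± 0.12 (adjusted p = 0.473), a comparison with 0.0561% called. Leaving out each mouse in turn kept the adjusted p of HNF4G-KO against control between 0.00446 and 0.0088, and that of HNF4G-KO + FOXA1-OE against control between 0.00568 and 0.0307. Without FOXA1-OE tumor 3, HNF4G-KO + FOXA1-OE against FOXA1-OE gave 0.89 (adjusted p = 0.00373). A fit of only the groups compared gave adjusted p = 0.0528 for HNF4G-KO + FOXA1-OE against control and 0.0751 against FOXA1-OE, the highest values over all alternatives and leave-outs of these comparisons. The FOXA1-OE effect with the knockout label, less that without it, was -0.04 ± 0.18 (adjusted p = 0.983), where 0.035% of all genes were called.

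VDR, the receptor, was between 4.53 and 14.3 RPKM in all libraries, and none of its differences passed the test. It was at 10.6, 7.86 and 6.50 RPKM in control tumors, 5.99, 9.64 and 4.53 in FOXA1-OE tumors, and 12.5, 9.94, 10.4 and 13.5 in tumors labeled HNF4G-KO. The tumors labeled HNF4G-KO + FOXA1-OE had 11.3, 11.5, 13.6, 8.96 and 7.52 RPKM. Every tumor labeled HNF4G-KO lay above every FOXA1-OE tumor, and all other pairs of tumor groups overlapped. The difference of HNF4G-KO from control was 0.45 ± 0.23 (adjusted p = 0.211, 95% interval -0.05 to 0.95), which leaves room for no difference and for a rise. HNF4G-KO + FOXA1-OE against FOXA1-OE gave 0.55 ± 0.23 (adjusted p = 0.169), and this became 0.81 with adjusted p = 0.0442 without FOXA1-OE tumor 2, the single mouse of 7 whose removal brought a call (range over the 7, 0.0442 to 0.434).

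**Figure D2:**
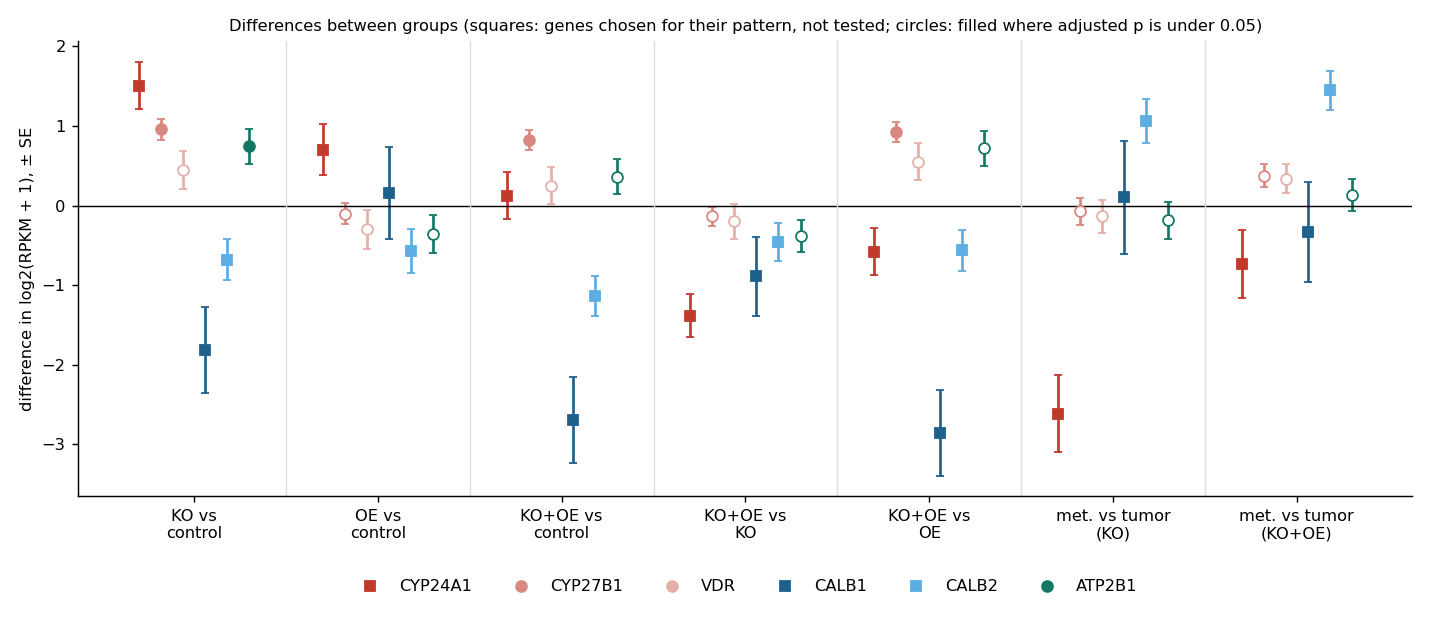
Differences between groups in log2(RPKM + 1) (vertical axis) with their SE, for the 6 genes above the filter in 7 comparisons (horizontal axis). Squares are the genes selected on their pattern, which were not tested; circles are filled where the adjusted p was under 0.05, as for CYP27B1 in 3 comparisons and ATP2B1 in 1.

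CALB1, the calbindin-D28k gene, was lower in both groups of primary tumors with the knockout label than in those without it. Control tumors had 52.5, 42.5 and 100.7 RPKM and FOXA1-OE tumors 103.5, 57.5 and 52.4. Tumors labeled HNF4G-KO had 19.5, 21.8, 16.8 and 10.7 RPKM, and those labeled HNF4G-KO + FOXA1-OE had 4.10, 8.66, 1.99, 31.7 and 8.24. Every tumor with the knockout label was below every tumor without it. Tumor 4 of the HNF4G-KO + FOXA1-OE group stood apart at 31.7 RPKM, above every tumor labeled HNF4G-KO, and tumors 2 and 3 of that group, which grew in the same mouse, differed from each other at 8.66 and 1.99.

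The mean of CALB1 was 3.79 times lower in tumors labeled HNF4G-KO than in control tumors (17.2 ± 4.78 against 65.2 ± 31.1 RPKM) and 5.28 times lower with both modifications (12.3 ± 13.04 RPKM). On the log2(RPKM + 1) scale these differences were -1.81 ± 0.54 and -2.70 ± 0.54, and FOXA1-OE alone differed from control by 0.15 ± 0.58. Control tumor 3 and FOXA1-OE tumor 1 each held about as much CALB1 as the other libraries of their group together, and without control tumor 3 the first 2 differences were -1.45 and -2.34. The sign of the FOXA1-OE difference turned without control tumor 2 (-0.10) or FOXA1-OE tumor 1 (-0.15). Without tumor 4 of the HNF4G-KO + FOXA1-OE group, the difference of that group from control was -3.29, and from HNF4G-KO it was -1.48 in place of -0.89.

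CALB2, the calretinin gene, followed another order, with lower levels in modified tumors and higher ones in metastases. It was at 31.3, 26.1 and 22.0 RPKM in control tumors and at 20.9, 13.7 and 18.1 in FOXA1-OE tumors. It was at 24.3, 14.5, 14.8 and 12.5 RPKM in tumors labeled HNF4G-KO and at 9.85, 9.96, 6.37, 15.4 and 13.8 in those with both. The 3 control tumors were above every FOXA1-OE tumor and every tumor with both modifications, and overlapped only with HNF4G-KO tumor 1. On the log2(RPKM + 1) scale, the differences from control tumors were -0.57 ± 0.27 for FOXA1-OE, -0.68 ± 0.25 for HNF4G-KO and -1.13 ± 0.25 for both.

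The ratio of CALB1 to CALB2, taken within each library and per length of gene, showed how the 2 buffers parted. Its median was 1.68 in control tumors, 4.20 in FOXA1-OE tumors, 0.998 in tumors labeled HNF4G-KO and 0.596 in those labeled HNF4G-KO + FOXA1-OE. In metastases it was 0.209 and 1.26 with the knockout label alone, and between 0.0416 and 0.364 with both. Across the 21 libraries the log2 levels of CALB1 and CALB2 had a Pearson correlation of 0.12, given as a description, since the libraries fall into 6 groups.

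ATP2B1, the calcium export pump, was higher in tumors labeled HNF4G-KO than in control tumors. It was at 8.61, 8.31 and 5.50 RPKM in control tumors, 6.80, 6.03 and 4.03 in FOXA1-OE tumors, and 11.1, 14.1, 13.4 and 13.5 in tumors labeled HNF4G-KO. The tumors with both modifications had 11.5, 12.7, 12.7, 9.13 and 6.72 RPKM, a range that overlapped both sides. HNF4G-KO differed from control by 0.75 ± 0.22 on the log2(RPKM + 1) scale (adjusted p = 0.0422), so 2 of the 3 tested genes of the set, CYP27B1 and ATP2B1, rose in this comparison, in which 12.2% of all genes were called. HNF4G-KO + FOXA1-OE against control gave 0.36 ± 0.22 (adjusted p = 0.397) and against FOXA1-OE 0.72 ± 0.22 (adjusted p = 0.0601). The latter was called with libraries shifted to 1 median (0.037), with each library separate (0.0305), without HNF4G-KO + FOXA1-OE tumor 5 (0.0195) and without trends on GC content and length (0.00516), all as limma adjusted p, and ranged up to 0.282 in a fit of only the groups compared.

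The call of ATP2B1 in HNF4G-KO against control was lost when any 1 of the 7 mice was left out, with adjusted p between 0.0555 and 0.189, and with no RPKM filter (adjusted p = 0.0953). ATP2B1 transcripts are poor in G and C (38.2%, the 9.49th percentile of genes tested), and the difference of HNF4G-KO from control ran with GC content and with transcript length across all genes (Spearman -0.277 and 0.396, across 14269 genes, which are not independent replicates). Once a trend on both was removed from every sample, an alternative added after the data were seen, the difference of ATP2B1 fell to 0.37 with adjusted p = 0.0621, whereas CYP27B1 kept 1.04 with adjusted p = 0.000469. CALB1 has still less GC (32.2%, the 0.387th percentile), and its difference became -2.15.

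TRPV6, the calcium entry channel, was barely present, with 0.106 to 0.586 RPKM in 20 libraries and 1.09 in HNF4G-KO + FOXA1-OE metastasis 2, the metastasis with high FOXA1. The 4 tumors labeled HNF4G-KO had 0.173, 0.124, 0.1204 and 0.150 RPKM, below the 0.245, 0.234 and 0.265 of control tumors. The tumors with both modifications overlapped the control range with 0.220, 0.124, 0.160, 0.325 and 0.309 RPKM. No test was run on TRPV6.

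The mRNA ratio of hormone breakdown to synthesis genes overlapped the control range in tumors with the knockout label alone. The within-library ratio of CYP24A1 to CYP27B1 had a median of 22.7 in control tumors (15.3 to 23.6) and 21.5 in tumors labeled HNF4G-KO (16.2 to 25.3). In FOXA1-OE tumors it was above every control tumor, with 27.7, 32.8 and 64.2. In tumors with both modifications it was below every other primary tumor, between 6.08 and 12.7, and in metastases it was between 1.97 and 9.66. Both ranges rest on CYP24A1, which was selected on its pattern, and were not tested.

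Metastases were compared with primary tumors that bore the same label. CYP24A1 was lower and CALB2 higher in each of the 5 metastases whose mouse also gave a primary tumor. In the mouse of HNF4G-KO tumor 2, CYP24A1 went from 84.9 RPKM in the tumor to 5.46 in the peritoneal metastasis, and in that of HNF4G-KO tumor 4 from 60.5 to 15.6. In the mouse of HNF4G-KO + FOXA1-OE tumor 1 it went from 38.5 to 11.3 in the spleen and 11.5 in fat. In that of tumor 4 it went from 21.5 to 7.55. The ratio of tumor over metastasis was thus between 2.85 and 15.5 in the 4 mice. HNF4G-KO + FOXA1-OE metastasis 3, from a mouse without a sequenced tumor, had 28.5 RPKM and lay within the range of the tumors.

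**Figure D3:**
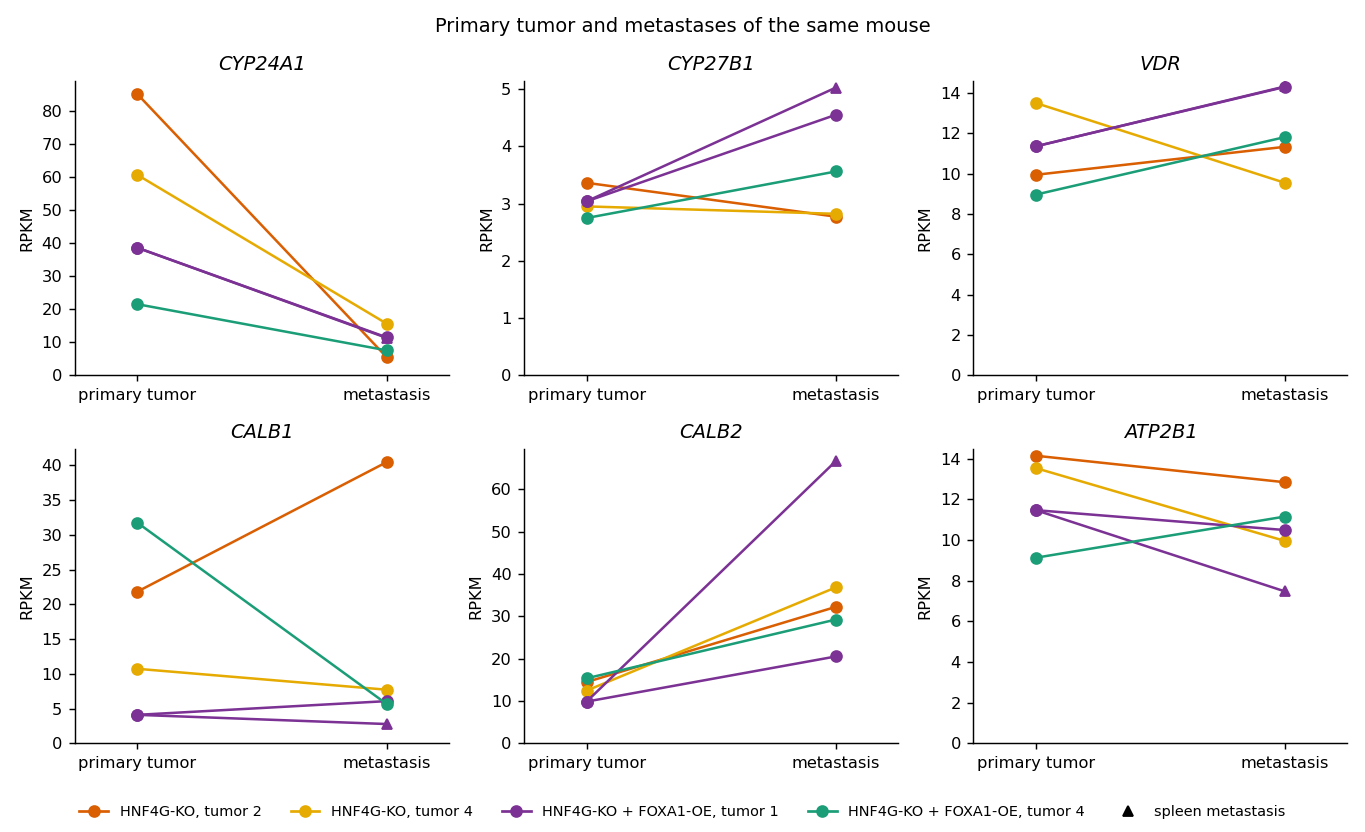
Level in RPKM (vertical axes, starting at 0) in the primary tumor and the metastases of the 4 mice with both, joined by lines; the triangle is the spleen metastasis. CYP24A1 falls in all 5 lines and CALB2 rises in all 5, while the other 4 genes have lines in both directions.

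CALB2 changed the other way in the same pairs. It went from 14.5 to 32.2 RPKM and from 12.5 to 36.8 in the 2 mice labeled HNF4G-KO. In those labeled HNF4G-KO + FOXA1-OE it went from 9.85 to 66.7 in the spleen and 20.5 in fat, and from 15.4 to 29.2 in the peritoneum. The metastasis without a tumor had 32.4 RPKM. Every metastasis lay above every tumor of its own label, of which the highest had 24.3 RPKM (HNF4G-KO) and 15.4 (HNF4G-KO + FOXA1-OE). CALB2 marks mesothelium, the lining of the peritoneum. Of 6 mesothelial markers, LRRN4, BNC1, GPM6A and PKHD1L1 never reached 1 RPKM in any library, and the summed level of the 6 was 27.6 and 38.1 RPKM in metastases labeled HNF4G-KO and 30.2 to 40.8 in those labeled HNF4G-KO + FOXA1-OE, against 37.6 to 53.0 and 15.4 to 43.4 in their tumors. All 6 neural markers stayed under 1 RPKM too. As host cells are mouse cells, these levels of human genes do not show how much host mesothelium was present. Its part in the level of CALB2 was not tested.

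On the log2(RPKM + 1) scale, metastases differed from tumors labeled HNF4G-KO by -2.61 ± 0.49 for CYP24A1 and 1.06 ± 0.28 for CALB2 (2 metastases against 4 tumors). The corresponding values for HNF4G-KO + FOXA1-OE were -0.73 ± 0.43 and 1.45 ± 0.24 (3 mice against 4). With the mouse as a block (animals with both kinds of sample) they were -2.81 and 1.30, and -1.53 and 1.35. Without metastasis 1 of the HNF4G-KO group CYP24A1 gave -1.93, and without metastasis 2 it gave -3.29. Without metastasis 3 of the HNF4G-KO + FOXA1-OE group it gave -1.24, and without metastasis 4 it gave -0.34. With metastasis 2 alone, the one with high FOXA1, the values were -0.96 for CYP24A1 and 0.80 for CALB2, and without the spleen metastasis CALB2 gave 1.17. In HNF4G-KO metastasis 2, skeletal muscle genes summed to 1188 RPKM, against 49.2 in the next library. How this bears on the differences for the HNF4G-KO label was not tested.

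CYP27B1, VDR and ATP2B1, the genes tested, did not pass the test in metastases under either label. Only 0.0426% of all genes tested were called for the label HNF4G-KO and 0.00709% for HNF4G-KO + FOXA1-OE, so these comparisons called few genes of any kind. CYP27B1 was at 2.77 and 2.82 RPKM in metastases labeled HNF4G-KO and at 5.03, 4.55, 2.96 and 3.56 in those labeled HNF4G-KO + FOXA1-OE, where the difference from tumors was 0.38 ± 0.15 (adjusted p = 0.475, 95% interval 0.06 to 0.69). VDR gave -0.13 ± 0.20 and 0.34 ± 0.18 (adjusted p = 0.802 and 0.53), with 11.3 and 9.54 RPKM in the former metastases and 14.3, 14.3, 12.4 and 11.8 in the latter. ATP2B1 gave -0.19 ± 0.23 and 0.13 ± 0.20 (adjusted p = 0.748 and 0.799). CALB1 was at 40.5 and 7.71 RPKM in the 2 metastases labeled HNF4G-KO, on either side of their tumors, and its difference was -1.02 without metastasis 1 and 1.23 without metastasis 2. In the 4 metastases labeled HNF4G-KO + FOXA1-OE CALB1 was at 2.77, 6.07, 11.8 and 5.64 RPKM, a difference of -0.33 ± 0.63 that became 0.27 without tumor 4 and -1.14 with the mouse as a block. TRPV6, which was not tested, was at 0.106 and 0.316 RPKM in metastases labeled HNF4G-KO and at 0.320, 1.09, 0.230 and 0.586 in those labeled HNF4G-KO + FOXA1-OE. It was higher than in the tumor of the same mouse in 4 of 5 metastases, by up to 4.97 times.

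A further 47 genes around the set were listed as vitamin D metabolism, partners of the receptor, its targets, calcium transport and EF-hand buffers. Of these, 27 passed the filter for primary tumors. In HNF4G-KO against control, 10 of the 27 were called, 7 higher and 3 lower, where 12.2% of all genes were called, and the median difference was 0.10 over the 27 and 0.01 over all genes tested. FOXA1-OE against control called 0 of 27 with limma, as it called 0 of 14269 genes in all, with 652 at an unadjusted p under 0.05. HNF4G-KO + FOXA1-OE called 5 of 27 against control (2 higher, 3 lower), where 4.7% of all genes were called, and 6 of 27 against FOXA1-OE (3 higher, 3 lower), where 7.86% were. HNF4G-KO + FOXA1-OE called 0 of 27 against HNF4G-KO, where 8 of all genes were called and 2894 had an unadjusted p under 0.05. The fit with metastases also tested 27 listed genes, with PVALB in place of BGLAP. It called 0 of these under either label, where 0.0426% (HNF4G-KO) and 0.00709% (HNF4G-KO + FOXA1-OE) of all genes were called. PVALB was at 34.2 RPKM in HNF4G-KO metastasis 2 and at most 2.03 in any other library.

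**Figure D4:**
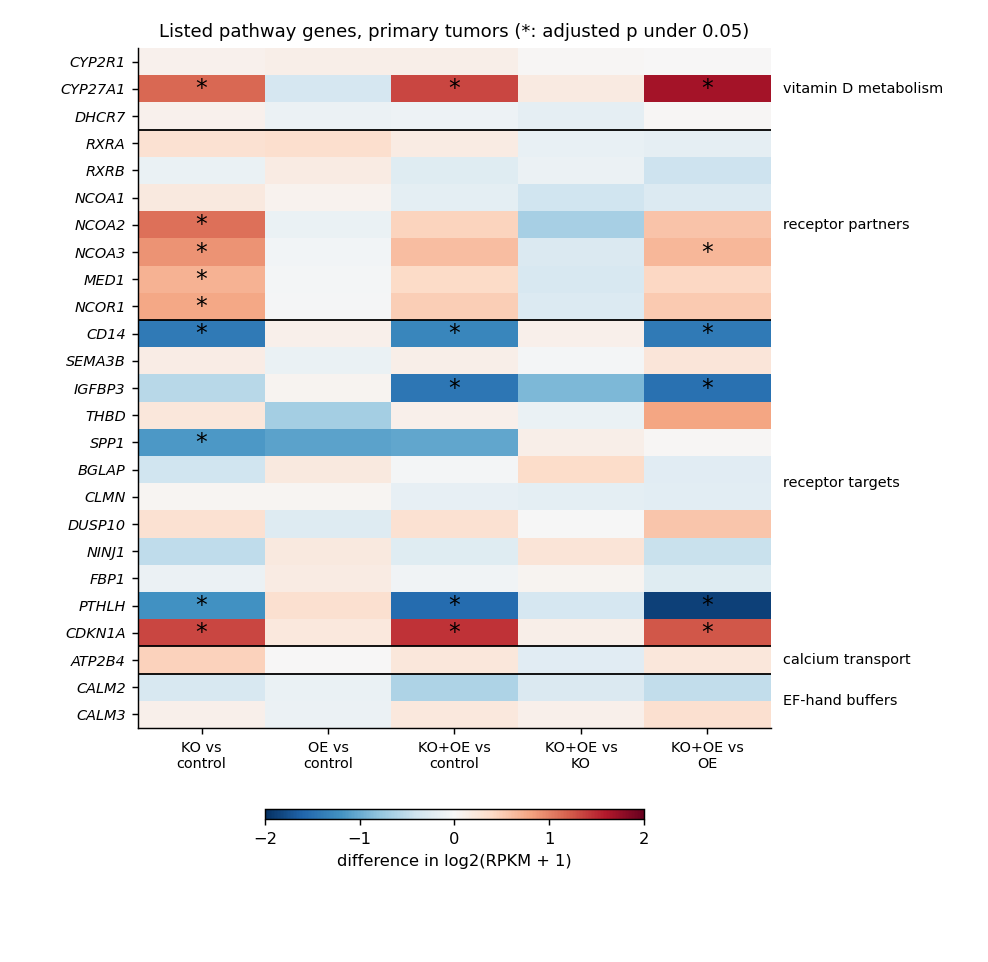
Differences in log2(RPKM + 1) (color scale from -2 to 2) of 25 of the 27 listed genes above the filter in 5 comparisons of primary tumors; asterisks mark adjusted p under 0.05. In HNF4G-KO against control, 4 of the receptor partners shown and CYP27A1 are higher, CD14, SPP1 and PTHLH are lower and CDKN1A is higher.

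Among the 7 genes of metabolism, CYP27A1, a mitochondrial enzyme that can hydroxylate vitamin D at position 25, rose in all groups of tumors with the knockout label. It was at 1.09 to 2.36 RPKM in control tumors, 0.848 to 1.23 in FOXA1-OE tumors, 3.36 to 6.51 in tumors labeled HNF4G-KO and 3.45 to 9.55 in those with both. The differences were 1.16 ± 0.27 for HNF4G-KO against control (adjusted p = 0.0174), 1.33 ± 0.27 for HNF4G-KO + FOXA1-OE against control (adjusted p = 0.0139) and 1.67 ± 0.27 against FOXA1-OE (adjusted p = 0.00266). The first call was lost in 3 of 7 fits with 1 mouse removed, with adjusted p up to 0.0796 without control tumor 2, and the second in 2 of 7, with adjusted p up to 0.0849 without control tumor 3. The third was kept in 7 of 7. CYP2R1, the main hepatic 25-hydroxylase, was at 4.46 to 5.38 RPKM in control tumors and tumors labeled HNF4G-KO and was not called (0.09 ± 0.13, adjusted p = 0.671). CYP3A4, GC, CUBN and LRP2, which stand for hormone breakdown, transport in blood and uptake, never reached 1 RPKM.

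Of the 9 receptor partners, 8 were tested, with a median difference of 0.73 over the 8 in HNF4G-KO against control. In this comparison 5 of the 8 were called higher, where 12.2% of all genes were called. The 5 included the coactivators NCOA2 (1.11 ± 0.27, adjusted p = 0.0211), NCOA3 (0.90 ± 0.17, adjusted p = 0.00695) and MED1 (0.70 ± 0.14, adjusted p = 0.0115), and the corepressor NCOR1 (0.77 ± 0.17, adjusted p = 0.0156). Once the trend on GC content and length was removed, these differences were smaller, at 0.83, 0.61, 0.46 and 0.54 in the same order. These cofactors serve many nuclear receptors. With 1 mouse removed, NCOA3 kept its call in 7 of 7 fits, MED1 and NCOR1 in 5 and NCOA2 in 2, where the adjusted p of NCOA2 reached 0.0917. NCOA3 was at 14.3 to 16.5 RPKM in tumors labeled HNF4G-KO and at 7.26 to 8.85 in control tumors, without overlap. RXRA and RXRB, which pair with VDR on DNA, gave 0.31 ± 0.21 and -0.13 ± 0.16 and were not called (adjusted p = 0.344 and 0.606). HNF4G-KO + FOXA1-OE against control called 0 of the 8 partners, where 4.7% of all genes were called. Against FOXA1-OE it called NCOA3 (0.67 ± 0.17, limma adjusted p = 0.0261), where 7.86% of all genes were called. NCOA3 lost this call in 4 of 7 fits with 1 mouse removed.

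Of the 15 receptor targets, 12 were tested, and those called went in both directions. CD14, a gene induced by the hormone in myeloid cells, fell from 11.2 to 17.3 RPKM in control tumors to 4.15 to 5.21 in tumors labeled HNF4G-KO and 2.68 to 6.95 in those with both. Its differences from control were -1.41 ± 0.24 (limma adjusted p = 0.0047) and -1.30 ± 0.24 (limma adjusted p = 0.00937). The sum of 5 other myeloid markers was at most 3.63 RPKM in any library, and PTPRC, ITGAM and TYROBP never reached 1. Host myeloid cells are mouse cells, so these levels of human genes do not show how many were present. Their part in the level of CD14 was not tested. CDKN1A, which encodes the cell cycle inhibitor p21, rose from 22.8 to 34.9 RPKM to 63.3 to 83.7 and 50.8 to 127, with differences of 1.33 ± 0.26 (adjusted p = 0.00883) and 1.45 ± 0.26 (adjusted p = 0.00805). PTHLH, which encodes a parathyroid hormone-related protein and is repressed by the hormone in several epithelia, was at 12.5 to 17.4 RPKM in control tumors and at 2.16 to 9.25 in tumors with both modifications, a difference of -1.55 ± 0.36 (adjusted p = 0.026) that kept its call in 2 of 7 fits with 1 mouse removed (adjusted p up to 0.0999).

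SPP1, which encodes osteopontin, was called in HNF4G-KO against control (-1.16 ± 0.31, adjusted p = 0.0292), a call kept in 2 of 7 fits with 1 mouse removed (adjusted p up to 0.139). IGFBP3, a carrier of insulin-like growth factors, was called in HNF4G-KO + FOXA1-OE against control (-1.45 ± 0.27, adjusted p = 0.00948) and against FOXA1-OE (-1.50 ± 0.27, adjusted p = 0.00496), with 29.0 to 58.2 RPKM in these tumors, 91.5 to 153 in control tumors and 97.3 to 154 in FOXA1-OE tumors. In HNF4G-KO + FOXA1-OE against FOXA1-OE, CD14 (-1.41 ± 0.24, adjusted p = 0.00411), PTHLH (-1.87 ± 0.36, adjusted p = 0.00692) and CDKN1A (1.24 ± 0.26, adjusted p = 0.0109) were called too. CD14 and CDKN1A kept their calls in all 7 fits with 1 mouse removed in HNF4G-KO against control and in HNF4G-KO + FOXA1-OE against FOXA1-OE. In HNF4G-KO + FOXA1-OE against control, CD14, CDKN1A and IGFBP3 each lost the call without control tumor 3 (limma adjusted p = 0.0648, 0.0584 and 0.0661). PTHLH, called in HNF4G-KO against control at -1.21 ± 0.36 (adjusted p = 0.0424), kept it in 0 of 7.

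Of the 10 genes of calcium transport, ATP2B4, a second plasma membrane pump, was the only one tested and was not called in HNF4G-KO against control (0.45 ± 0.17, adjusted p = 0.0994). TRPV5, the renal relative of TRPV6, and S100G, calbindin-D9k, never reached 1 RPKM. Of the 6 EF-hand buffers, 3 were tested, with 0 called in each comparison of primary tumors, where 0% to 12.2% of all genes were called. The count of 10 called genes in HNF4G-KO against control was 3 without control tumor 2, 4 without control tumor 3, 6 without HNF4G-KO tumor 3 and 5 without HNF4G-KO tumor 4. That of 5 in HNF4G-KO + FOXA1-OE against control was 3 without control tumor 2, 0 without control tumor 3 and 0 in a fit of only the groups compared, which left 1 of the 6 against FOXA1-OE. All 21 calls of listed genes in the 3 comparisons held once the trend on GC content and length was removed.

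Genes with the most similar levels across the 21 libraries were found by Pearson correlation of log2(RPKM + 1) over 14229 genes, as a description. For CYP24A1 they were RAI14 (0.89), FAM13A (0.87) and AIF1L (0.86). For CYP27B1 they were RBP4 (0.95), BMP7 (0.94) and EPHA1 (0.94). For VDR they were TRIM25 (0.95), PIP4K2C (0.94) and NARS1 (0.94), and for ATP2B1 they were JAK2 (0.97), APAF1 (0.95) and SCYL2 (0.95). CALB1 was closest to APOBEC3G (0.94), SH3BGRL (0.91) and PHOSPHO2 (0.91), and among the genes closest to CALB2 were MANEAL (0.76) and SLC7A7 (0.76). Within the set, CYP27B1 ran with VDR (0.78) and against CALB1 (-0.79), VDR ran with ATP2B1 (0.76), and the largest value of CYP24A1 was with CALB2 (-0.47).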

How the data were processed

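RNA-seq libraries of HPAF-II tumors and metastases were used; KPC samples were not used here. The authors aligned 50 bp single-end reads with STAR 2.6.1a, and deposited RPKM values per gene; the submitters' notes also name featureCounts 2.0.4, DESeq2 and hg38, while the paper's methods name GRCh37. Positions are from GENCODE release 44 (GRCh38), with 34590 of 58719 gene IDs in the same version, and they do not enter the RPKM values. Depth and reads per gene were worked out from the steps between low RPKM values, 99.7% or more of which were whole numbers of reads within 0.05.

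From these values log2(RPKM + 1) was fitted with limma 3.58.1 in R 4.3.3 (eBayes with trend), with Benjamini-Hochberg adjustment over genes whose mean reached 1 RPKM (14269 in primary tumors, 14099 with metastases) and a threshold of 0.05. The 4 groups of primary tumors entered 1 fit, and tumors and metastases with the knockout label another. Fold changes on this scale understate those of low genes. Replicates are separate mice, and p-values cover the spread between them. The knockout cells are a pool of clones, so an effect of the knockout cannot be told apart from other differences of these clones. Tumors and metastases of a mouse are paired by animal; their deviations from the group means correlated at -0.03 to 0.30 over 4 mice. The fits were tested on simulated data. The 7 genes, the lists and the comparisons were chosen with earlier results of these data known. Named genes are the 7, HNF4G and FOXA1, listed genes called (the 8 of smallest p per comparison; PTHLH in HNF4G-KO against control was added after its values were seen), and the 3 most similar genes; some results of this rule are not reported here. Other genes of the lists and muscle genes were also named after their values were seen. Alternatives were a pseudocount of 0.1, no filter, a common median, only the groups compared, separate libraries, replicate blocks and leaving out each mouse. Added after seeing the data were a fit free of trends with transcript GC and length (splines with 5 degrees of freedom) and metastasis 2 alone.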

Additional observations from a re-analysis of the deposited data

Results flagged for a closer look

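Each gene of the set, HNF4G and FOXA1 was checked in the groups of 4 or 5 libraries for a highest or lowest library far from the rest, 27 checks in all, of which chance flags about 1 in 20. CALB1 in HNF4G-KO + FOXA1-OE tumor 4 (31.7 RPKM, the next at 8.66) stood apart, as did FOXA1 in HNF4G-KO tumor 4 (1.87 RPKM, the next at 1.36) and in HNF4G-KO + FOXA1-OE metastasis 2 (17.9 RPKM, the next at 1.55). CYP24A1 was above every control tumor in every FOXA1-OE tumor and below every tumor labeled HNF4G-KO in every tumor labeled HNF4G-KO + FOXA1-OE, a difference of the 2 effects of -2.08 on the log2(RPKM + 1) scale, which was not tested because the gene was selected on this pattern.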

How the results depend on the processing

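Counts of genes called over the whole table moved with the processing. With a pseudocount of 0.1, HNF4G-KO + FOXA1-OE against HNF4G-KO called 0 genes, the difference of the FOXA1-OE effects 0 and metastases labeled HNF4G-KO 10. With no RPKM filter, FOXA1-OE against control called 3, HNF4G-KO + FOXA1-OE against HNF4G-KO 16, the difference of the effects 2, and metastases 10 (HNF4G-KO) and 0 (HNF4G-KO + FOXA1-OE). With samples shifted to 1 median, the difference of the effects, HNF4G-KO metastases and both modifications against the knockout label alone called 0 each; with each library separate they called 0, 0 and 4. Fits of only the groups compared called 5595 (HNF4G-KO against control), 25 and 86 (HNF4G-KO + FOXA1-OE against control and FOXA1-OE), 0 (against HNF4G-KO), and 18 and 0 in metastases. Without GC and length trends the counts were 1410, 2070 and 13 for HNF4G-KO + FOXA1-OE against control, FOXA1-OE and HNF4G-KO, 0 for the difference of the effects, and 3 and 5 in metastases. Metastasis 2 alone called 0.

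With the tumor number as a replicate block, HNF4G-KO + FOXA1-OE called 1 gene against HNF4G-KO and 2414 against FOXA1-OE, and the difference of the effects 0. Tumors share only a number (r from -0.53 to 0.50 over 19 pairs, 7 over 0.1). Listed genes called against FOXA1-OE rose from 6 to 11 and ATP2B1 was called there (adjusted p = 0.01, limma). With the mouse as a block, HNF4G-KO metastases called 0 genes.

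With 1 mouse removed, counts ran from 284 (without control tumor 2) to 1165 for HNF4G-KO against control, 0 to 0 for FOXA1-OE, 133 (without control tumor 3) to 687 for both against control, 0 to 15 against HNF4G-KO, 571 to 1439 against FOXA1-OE, 0 to 7 for the difference of the effects, 0 to 353 for HNF4G-KO metastases (353 without metastasis 1) and 0 to 57 for HNF4G-KO + FOXA1-OE metastases (57 without tumors 2 and 3). A lone sample left in a group was assumed to vary like the others.

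Values near 0 changed sign. The difference of the FOXA1-OE effects was 0.012 (pseudocount) and 0.026 (median shift) for CYP27B1, and 0.0389 (median shift), 0.0463 (separate libraries), 0.183 (tumor number block) and 0.281 (GC and length) for ATP2B1; with 1 mouse removed it ran from -0.0975 to 0.0549 for CYP27B1, -0.111 to 0.361 for VDR and -0.209 to 0.157 for ATP2B1. ATP2B1 in HNF4G-KO + FOXA1-OE metastases was -0.0374 with the mouse block, -0.0531 without GC and length trends, and -0.0244 to 0.264 with 1 mouse removed. Without those trends ATP2B1 was also 0.0978 for HNF4G-KO metastases, where VDR was 0.0248, and 0.0436 for both modifications against the knockout label alone. The causes were not tested. Over all alternatives, 24 values of VDR, CYP27B1 and ATP2B1 changed sign, 11 lost a call and 6 gained one. The fits without GC and length trends, and with metastasis 2 alone, were chosen after seeing the data.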

Other observations

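PVALB, which encodes parvalbumin, an EF-hand calcium buffer of fast muscle, was at 34.2 RPKM in HNF4G-KO metastasis 2 and at most 2.03 in any other library, with a median of 0. In the same library 6 skeletal muscle genes, written down after this value was seen, summed to 1188 RPKM, against 49.2 in the next library and a median of 12.9. ACTA1 was at 733 RPKM, CKM at 147 and MYH4 at 59.7 there. CALB2, at 36.8 RPKM in this metastasis, was at 32.2 in HNF4G-KO metastasis 1.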
